A study of Rattus norvegicus with 12 samples.

Results

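The 10 genes described here encode the core of transforming growth factor-beta (TGF-beta) signalling, namely the ligands Tgfb1, Tgfb2 and Tgfb3, the receptors Tgfbr1, Tgfbr2 and Tgfbr3, the receptor-activated SMADs Smad2 and Smad3, and the inhibitory SMADs Smad6 and Smad7. They were chosen by symbol as members of the pathway, by a rule that uses no measured value although earlier results of these data were known, and make up 10 of the 32545 genes of the deposited table. Their symbols match 11 rows, because Tgfbr1 is listed on a pair of rows, and the second of these (ENSRNOG00000050760) held 2 reads in all and was not tested. RNA was taken from LV and RV free-wall myocardium of neonatal Sprague-Dawley (SD) rats, an outbred stock of laboratory rat, at postnatal day 7. At postnatal day 1 the rats had either received a fistula between the abdominal aorta and the inferior vena cava, which returns arterial blood to the veins and loads both ventricles with volume (VO), or a sham operation. There were 3 libraries in each of 4 groups, the LV of sham and of VO rats and the RV of both, and the labels do not say whether LV and RV libraries of the same number came from 1 rat. The p values therefore measure the spread between these libraries only. Both ventricles of the model carry the load, so no ventricle of an operated rat served as an unloaded control.

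TGF-beta is secreted in a latent form that is stored in the extracellular matrix and released by proteases and integrins. The free ligand binds the type II receptor TGFBR2, which phosphorylates the type I receptor TGFBR1, and this kinase in turn phosphorylates SMAD2 and SMAD3, which enter the nucleus with SMAD4 and change transcription. SMAD6 and SMAD7 are induced by the pathway and its BMP branch and hold them in check, and in the heart the pathway is best known for its part in valve formation, fibroblast activation and matrix deposition.

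Levels are given as FPKM, the fragments mapped to a gene scaled by its length and by the size of the library, so that levels of different genes can be set side by side. Libraries still differed in their trend on gene length, as given below. Differences are log2 fold changes of the rescaled FPKM plus 0.5, from 1 limma model of the 4 groups over 13910 genes. A DEG needed a Benjamini-Hochberg adjusted p under 0.05 over all tested genes and a fold change over 1.3. All 10 genes passed the filter on low values. With 3 libraries against 3, the exact permutation test could not go below 0.1.

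All 10 genes were expressed in every library, at 225 to 2161 reads per gene and library. Tgfbr2 had the highest mean level over the 12 libraries (38.8 FPKM), followed by Tgfb1 (26.6 FPKM), Tgfb3 (15.0 FPKM), Smad6 (14.5 FPKM), Tgfbr3 (10.5 FPKM), Smad7 (10.01 FPKM), Smad2 (9.96 FPKM), Smad3 (8.07 FPKM), Tgfb2 (8.01 FPKM) and Tgfbr1 (5.64 FPKM). The type II receptor was thus listed well above its type I partner in each library. Smad2 was the steadiest gene, its highest library lying 1.34 times above its lowest, whereas the highest library of Tgfb3 lay 3.14 times above the lowest. In the table Tgfb1 is ENSRNOG00000020652 on chromosome 1, Tgfb3 is ENSRNOG00000009867 on chromosome 6, Tgfbr3 is ENSRNOG00000002093 on chromosome 14 and Smad3 is ENSRNOG00000008620 on chromosome 8, all protein-coding. No other annotated gene overlapped 9 of the 10 genes, and the span of Tgfb2 holds a small nucleolar RNA gene.

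Libraries held between 14121713 and 16871371 reads on genes. A pair of libraries, VO RV replicate 2 and sham RV replicate 1, carried the atrial transcripts Sln and Bmp10 in tissue labelled as ventricular free wall. Sln, the atrial regulator of the calcium pump, stood at 388 and 97.7 FPKM in them and between 0 and 0.678 FPKM in the other 10 libraries, and Bmp10, an atrial BMP ligand, stood at 72.4 and 12.6 FPKM against 0 to 0.152 FPKM. Of the other 3 atrial markers, Myl7 was also highest in both (463 and 138 FPKM, others 21.4 to 75.5 FPKM). Myl4 (599 and 191 FPKM, others 126 to 265 FPKM) and Nppa (3037 and 625 FPKM, others 64.2 to 1423 FPKM) stood apart in VO RV replicate 2 only, and the atrial marker sum of sham RV replicate 1 (1065 FPKM) lay within the 212 to 1729 FPKM of the other 10 libraries. In VO RV replicate 2 the summed level of 9 ventricular cardiomyocyte markers was also the lowest of the 12 libraries (18742 FPKM, others 22871 to 29878 FPKM) and that of 10 fibroblast markers the highest (4697 FPKM, others 2119 to 3569 FPKM). The main results are given with and without this pair.

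**Figure D1:**
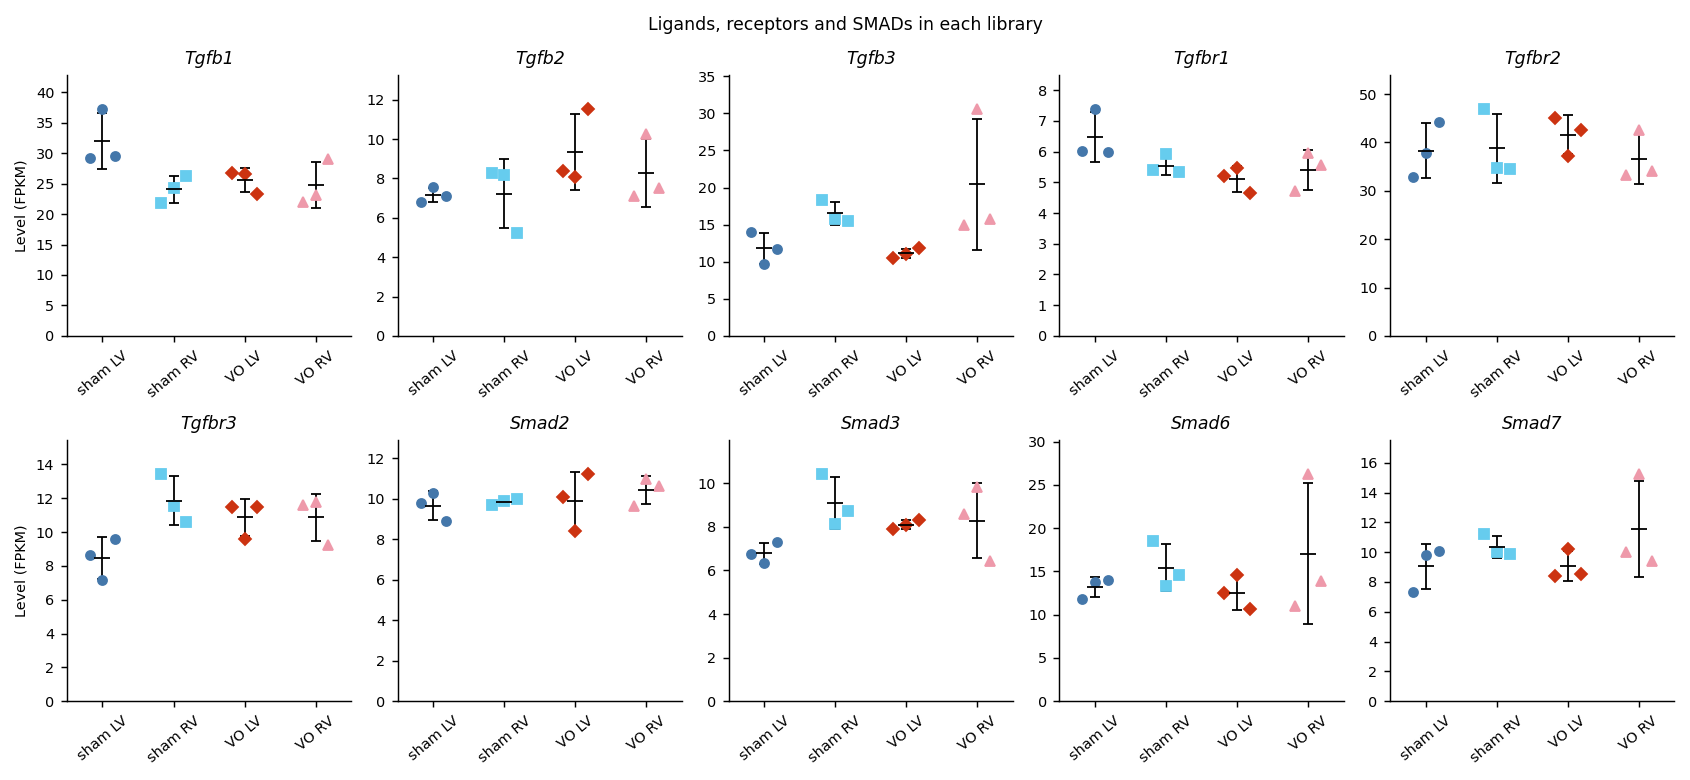
FPKM of each gene (y axis, from 0) in the 3 libraries of each group (points, x axis), with the mean (line) and SD (bars) of the group. Tgfb1 lay at 29.1 FPKM or more in the sham LV and at 26.3 FPKM or less in the sham RV, and VO RV replicate 2 was the highest library for Tgfb3, Smad6 and Smad7.

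The starts of 9 of the 10 genes are covered by the RefSeq promoter table (build GRCr8, 250 bases before to 50 bases after the start), and 4 of these are shown because their genes carry the differences described next, Tgfb1 rising and falling opposite to Tgfbr3 and Smad3. Capitals mark the GC box, GGGCGG on either strand, which binds factors of the Sp family.
Tgfb1, chr1:90324062-90324361, plus strand: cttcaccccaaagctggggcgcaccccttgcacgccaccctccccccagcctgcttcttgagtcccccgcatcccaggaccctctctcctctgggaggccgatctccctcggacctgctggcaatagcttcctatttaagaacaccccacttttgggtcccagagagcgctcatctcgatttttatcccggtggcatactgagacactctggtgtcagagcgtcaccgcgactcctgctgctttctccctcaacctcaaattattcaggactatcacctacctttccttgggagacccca
Tgfb3, chr6:111456897-111457196, minus strand: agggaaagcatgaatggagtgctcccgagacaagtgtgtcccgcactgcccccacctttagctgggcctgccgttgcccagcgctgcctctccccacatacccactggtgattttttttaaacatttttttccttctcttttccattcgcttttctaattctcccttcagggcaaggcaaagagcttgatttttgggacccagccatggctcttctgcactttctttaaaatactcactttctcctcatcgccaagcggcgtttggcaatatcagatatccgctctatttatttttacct
Tgfbr3, chr14:2634044-2634343, plus strand: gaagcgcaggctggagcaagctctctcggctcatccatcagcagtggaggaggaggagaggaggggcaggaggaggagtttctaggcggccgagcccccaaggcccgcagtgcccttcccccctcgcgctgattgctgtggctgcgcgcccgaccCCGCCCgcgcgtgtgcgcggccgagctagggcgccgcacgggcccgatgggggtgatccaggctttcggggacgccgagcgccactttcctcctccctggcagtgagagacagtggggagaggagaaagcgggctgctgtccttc
Smad3, chr8:73132275-73132574, minus strand: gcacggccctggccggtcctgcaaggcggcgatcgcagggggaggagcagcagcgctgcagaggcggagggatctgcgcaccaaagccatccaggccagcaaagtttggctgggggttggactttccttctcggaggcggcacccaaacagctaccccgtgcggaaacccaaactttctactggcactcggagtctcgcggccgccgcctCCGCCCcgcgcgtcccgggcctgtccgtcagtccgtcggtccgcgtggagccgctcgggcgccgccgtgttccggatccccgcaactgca
The GC box occurred once in the windows of Tgfbr3 and Smad3 and in neither window of Tgfb1 and Tgfb3, and 33.1% of the 33469 promoters of the table hold it. In the windows not shown there were 3 GC boxes for Tgfbr1, 2 for Smad7, 1 for Tgfbr2 and 0 for Tgfb2. The overlapping windows of Smad2 held 2 and 5. The windows of Tgfbr3 and Smad3 each had a GC content of 69.7%, against 57.7% for Tgfb1, 47.7% for Tgfb3 and a median of 51.7% over the table. The windows not shown had 59.0 to 82.7%, with 74.7% for Tgfbr1. A link of GC boxes or GC content with the levels was not tested. The SMAD box, CAGAC or its reverse complement GTCTG, was found in none of the 10 windows of the 9 genes, while 50.1% of all promoters hold it, which says only that these letters are not in these windows. The letters of the GC box and the SMAD box can share a base at their ends.

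The comparison of the sham groups asks how the LV and RV differ at this age without a fistula. None of the 10 genes was a DEG, where 3.86% of all tested genes were (537 of 13910). With the unadjusted p in place of the adjusted one, 3 of the 10 genes passed, Tgfb1 higher and Tgfbr3 and Smad3 lower in the LV, against 17.8% of all tested genes. In 5 of the 10 genes the sham LV and sham RV libraries did not overlap, against 32.2% of all tested genes. The median size of the log2 fold change was 0.21 over the 10 genes and 0.21 over all tested genes.

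Tgfb1, the most abundant ligand, stood at 29.1, 37.3 and 29.5 FPKM in the sham LV and at 21.8, 24.2 and 26.3 FPKM in the sham RV. The groups did not overlap, and sham LV replicate 2 was the highest of all 12 libraries. The means were 32.0 ± 4.6 and 24.1 ± 2.2 FPKM (SD, n = 3 each; exact permutation p = 0.1), a log2 fold change of 0.40 with an SE of 0.13 (limma, unadjusted p = 0.0111, adjusted p = 0.0944).

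Tgfb3, the ligand best known for closing the palate, went the other way. It stood at 13.96, 9.75 and 11.7 FPKM in the sham LV and at 18.3, 15.8 and 15.4 FPKM in the sham RV, again without overlap. Its log2 fold change was −0.48 with an SE of 0.23 (limma, unadjusted p = 0.0595, adjusted p = 0.212). Tgfb2, which is needed for valve and septum formation in the embryo, had overlapping groups (7.16 ± 0.37 and 7.24 ± 1.7 FPKM, SD, n = 3 each), with a log2 fold change of 0.01 and a 95% interval of −0.41 to 0.43. As a description with no test, Tgfb1 was 58.4 to 68.3% of the summed ligand FPKM in the sham LV and 45.1 to 56.0% in the sham RV. The ratio of Tgfb1 to Tgfb3 was 2.09 to 3.83 in the sham LV and 1.19 to 1.70 in the sham RV, and under VO it was 1.97 to 2.54 in the LV and 0.757 to 1.85 in the RV.

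Among the receptors, Tgfbr3, or betaglycan, a co-receptor that presents TGFB2 to the type II receptor, was lower in the sham LV. It stood at 8.62, 7.16 and 9.61 FPKM in the sham LV and at 13.4, 11.5 and 10.6 FPKM in the sham RV. No sham LV library reached the lowest sham RV library. Its log2 fold change was −0.47 with an SE of 0.14 (limma, unadjusted p = 0.00620, adjusted p = 0.0746), the smallest adjusted p of the 10 genes in any comparison. Tgfbr1, the signalling kinase of the complex, stood at 6.03, 7.40 and 5.99 FPKM in the sham LV and at 5.40, 5.91 and 5.34 FPKM in the sham RV. Its groups did not overlap either, with a log2 fold change of 0.20 and a 95% interval of −0.06 to 0.46 (limma, adjusted p = 0.303). This fold change ranged from 0.11 to 0.25 with 1 library left out at a time, and sham LV replicate 2 was the highest of the 12 libraries for Tgfbr1. Tgfbr2 overlapped between the sham groups (38.3 ± 5.7 and 38.8 ± 7.1 FPKM, SD, n = 3 each).

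Of the SMADs that carry the signal, Smad3 was the lower one in the sham LV. It stood at 6.75, 6.33 and 7.29 FPKM in the sham LV and at 10.4, 8.14 and 8.71 FPKM in the sham RV, without overlap. This gave a log2 fold change of −0.39 with an SE of 0.14 (limma, unadjusted p = 0.0184, adjusted p = 0.118). Smad2, its close relative, showed no such separation, at 9.65 ± 0.72 and 9.85 ± 0.16 FPKM (SD, n = 3 each) and a log2 fold change of −0.03 with a 95% interval of −0.27 to 0.21. The inhibitory SMADs overlapped between the sham groups, Smad6 at 13.2 ± 1.2 and 15.4 ± 2.8 FPKM and Smad7 at 9.06 ± 1.5 and 10.4 ± 0.74 FPKM (SD, n = 3 each).

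These sham differences lay near the thresholds and moved with other measures of the libraries. Without sham LV replicate 2, or without sham RV replicate 1, 0 of the 10 genes passed the unadjusted p and the fold change, and without sham RV replicate 1 and VO RV replicate 2 together Tgfb3 and Tgfbr3 did. In these 3 fits 12.7%, 13.1% and 14.1% of all tested genes passed. The log2 fold changes without either single library were 0.28 and 0.33 for Tgfb1, −0.36 and −0.38 for Tgfbr3 and −0.35 and −0.29 for Smad3. The unadjusted p of Tgfbr3 alone was under 0.05 in all 26 alternatives, and those of Tgfb1 and Smad3 each were in 24. The summed level of 9 endothelial markers was 524 to 572 FPKM in the sham LV and 382 to 405 FPKM in the sham RV, where 5 of the 9 markers did not overlap, all 5 higher in the LV, and Cldn5 was listed at 0 in all 12 libraries. Other marker sums were apart as well, with macrophage markers at 125 to 139 FPKM in the sham LV and 95.3 to 105 FPKM in the sham RV, mural markers at 519 to 618 and 439 to 481 FPKM, and erythroid markers at 9682 to 13266 and 4926 to 8222 FPKM. Of single markers without overlap, 1 of 9 macrophage markers was higher in the sham LV and 1 was lower. Higher without overlap were 2 of 8 mural and 3 of 6 erythroid markers. Sham LV replicate 2 had the highest erythroid sum and the lowest share of mitochondrial reads of the 12 libraries (14.4%, others 16.0 to 26.2%). The sum of 4 valve and endocardial markers, mostly Postn, which fibroblasts also express, was 242 to 286 FPKM in the sham LV and 294 to 398 FPKM in the sham RV. The libraries also differed in how their values leaned on gene length, and once each library's trend on length was removed the log2 fold change was 0.41 for Tgfb1, −0.36 for Tgfbr3 and −0.31 for Smad3. The latter pair fell under the fold change of 1.3 there. In bulk tissue, fewer cells of a type cannot be told apart from less RNA per cell, and the part of cell makeup or of the length trend in these differences was not tested.

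**Figure D2:**
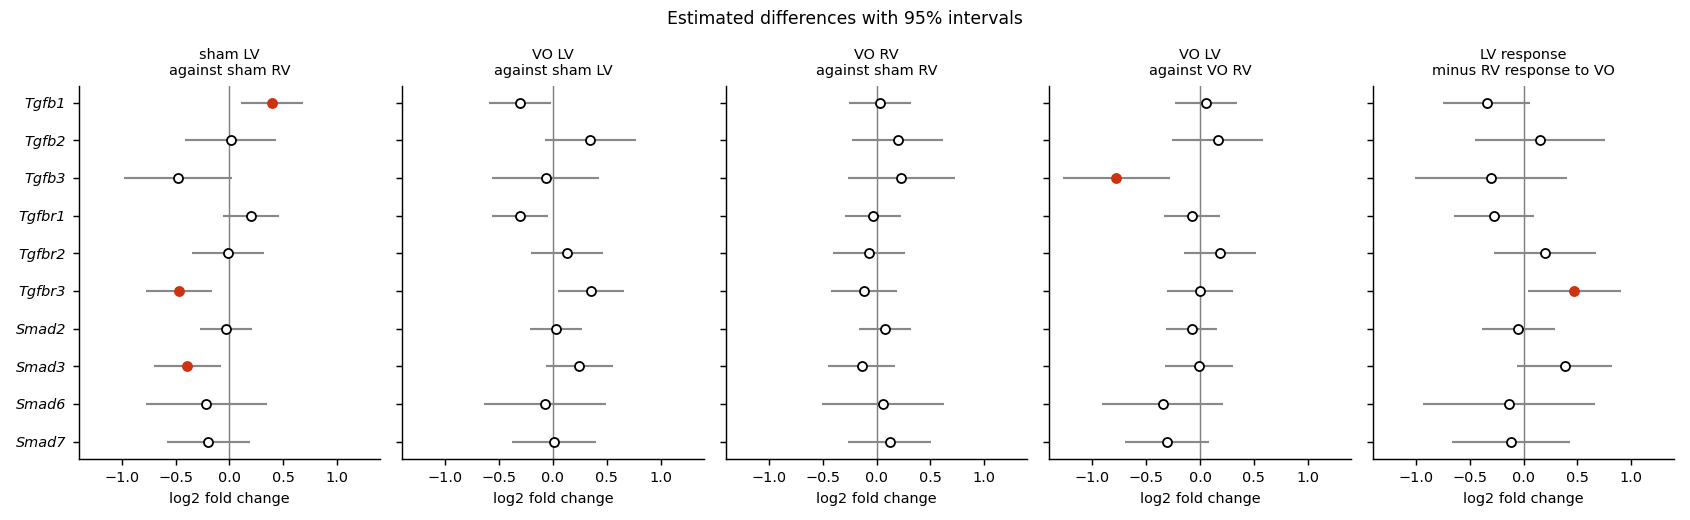
Log2 fold change (x axis) of each gene (rows) in the 5 comparisons (panels), with 95% intervals as bars. Filled points had an unadjusted p under 0.05 besides changing more than 1.3-fold (3 genes between the sham groups, Tgfb3 between the VO groups and Tgfbr3 in the difference of responses), and open points did not.

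The comparison of VO with sham in the LV asks what the load changed in that ventricle. None of the 10 genes was a DEG, where 0.0935% of all tested genes were. None passed the unadjusted p with the fold change, against 15.7% of all tested genes, and in 4 of the 10 genes the groups did not overlap, against 32.4%. Of these 4, Tgfb1 and Tgfbr1 were lower and Tgfb2 and Smad3 higher in the VO LV. This comparison shares its sham LV libraries with the one between the sham groups.

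Tgfb1 stood at 26.8, 26.7 and 23.3 FPKM in the VO LV, below all 3 sham LV libraries (29.1 to 37.3 FPKM). The log2 fold change was −0.31 with an SE of 0.13 (limma, unadjusted p = 0.0367, adjusted p = 0.187). The VO LV libraries overlapped with those of the sham RV and VO RV. Tgfb2 stood at 8.38, 8.09 and 11.6 FPKM in the VO LV, above the 6.82 to 7.56 FPKM of the sham LV. Its log2 fold change was 0.35 with an SE of 0.19 (limma, adjusted p = 0.298), and it was 0.19 without VO LV replicate 3, the highest of the 12 libraries. Tgfb3 overlapped, at 11.1 ± 0.64 FPKM in the VO LV and 11.8 ± 2.1 FPKM in the sham LV (SD, n = 3 each).

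Tgfbr1 stood at 5.21, 5.47 and 4.65 FPKM in the VO LV, under the 5.99 to 7.40 FPKM of the sham LV. The log2 fold change was −0.31 with an SE of 0.12 (limma, unadjusted p = 0.0250, adjusted p = 0.158). Tgfbr3 stood at 11.5, 9.60 and 11.5 FPKM in the VO LV and overlapped with the sham LV by the narrowest of margins, since sham LV replicate 3 reached 9.61 FPKM. Its log2 fold change was 0.35 with an SE of 0.14 (limma, unadjusted p = 0.0282, adjusted p = 0.165). Smad3 stood at 7.92, 8.07 and 8.33 FPKM in the VO LV, above the 6.33 to 7.29 FPKM of the sham LV, with a log2 fold change of 0.24 and a 95% interval of −0.07 to 0.56 (limma, adjusted p = 0.320). Tgfbr2, Smad2, Smad6 and Smad7 overlapped between the VO LV and sham LV. The endothelial marker sum was 409 to 459 FPKM in the VO LV against 524 to 572 FPKM in the sham LV, and 4 of its 9 markers were lower without overlap. The fibroblast marker sum was 2119 to 2549 FPKM against 2571 to 2833 FPKM, with 4 of 10 markers lower without overlap, and 3 of 6 erythroid markers were lower without overlap too. The part of these cells in the LV differences was not tested. The lower Tgfb1, Tgfbr1 and higher Tgfbr3 also leaned on sham LV replicate 2, without which the log2 fold changes were −0.20, −0.21 and 0.24. Tgfbr3 passed the unadjusted p with the fold change without sham LV replicate 3 or VO LV replicate 2, at 0.44 and 0.43.

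In the RV the same question gave no separation. None of the 10 genes was a DEG between the VO RV and sham RV, where 0% of the tested genes were, and none passed the unadjusted p with the fold change, against 4.91% (683 genes). The groups overlapped in all 10 genes, while they did not in 12.5% of all tested genes. The largest estimate was that of Tgfb3, at 15.0, 30.6 and 15.7 FPKM in the VO RV and 15.4 to 18.3 FPKM in the sham RV, with a log2 fold change of 0.23 and a 95% interval of −0.27 to 0.73. That estimate rested on VO RV replicate 2, which was the highest of the 12 libraries for Tgfb3, and the other pair of VO RV libraries lay within 1 FPKM of each other. Without this library the log2 fold change was −0.10, and without both atrial-transcript libraries it was −0.02.

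Smad6 and Smad7 had the same outlying library. Smad6 stood at 11.02, 26.3 and 13.9 FPKM in the VO RV and at 18.5, 13.3 and 14.5 FPKM in the sham RV. Smad7 stood at 10.01, 15.3 and 9.38 FPKM in the VO RV and at 11.2, 10.01 and 9.87 FPKM in the sham RV. For both genes the pair of libraries with atrial transcripts held the highest level of their group. The log2 fold change was 0.06 for Smad6 and 0.12 for Smad7, and it turned to −0.30 and −0.09 without VO RV replicate 2. The 95% intervals of the fits on all libraries, −0.50 to 0.62 and −0.27 to 0.51, left a 1.3-fold change in either direction possible for Smad6.

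Between the VO LV and VO RV, none of the 10 genes was a DEG, where 0.00719% of all tested genes were. Tgfb3 alone passed the unadjusted p with the fold change, against 7.4% of all tested genes, and it was also the only one of the 10 without overlap, against 16.1%. It stood at 10.6, 10.97 and 11.8 FPKM in the VO LV and at 15.0, 30.6 and 15.7 FPKM in the VO RV. Every RV library, sham or VO, lay above every LV library for this ligand. The log2 fold change was −0.78 with an SE of 0.23 (limma, unadjusted p = 0.00563, adjusted p = 0.281), and it was −0.45 without VO RV replicate 2. It passed the unadjusted rule in every alternative run, joined by Smad6 without VO RV replicate 1 and by Smad7 without VO RV replicate 3. The valve and endocardial marker sum moved with it, at 176 to 269 FPKM in the VO LV and 308 to 658 FPKM in the VO RV, with 3 of its 4 markers apart, and 6 of 10 fibroblast markers were lower in the VO LV without overlap. So were 6 of 8 epicardial markers, whose sum was 28.8 to 39.7 FPKM in the VO LV and 38.4 to 76.6 FPKM in the VO RV. Going the other way, 4 of 9 ventricular cardiomyocyte markers and 2 of 8 mural markers were higher in the VO LV without overlap. The part of these cells in the Tgfb3 difference was not tested.

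The difference between the responses of the ventricles asks whether VO moved a gene by unequal amounts in the LV and RV. None of the 10 genes passed the adjusted p, where 4.19% of all tested genes did, and 1 passed the unadjusted p, against 23.1%. That gene was Tgfbr3, whose change in the LV exceeded that in the RV by 0.47 on the log2 scale with an SE of 0.20 (limma, unadjusted p = 0.0357, adjusted p = 0.167). Its group means were 8.46 FPKM in the sham LV, 10.9 FPKM in the VO LV, 11.9 FPKM in the sham RV and 10.9 FPKM in the VO RV. Smad3 followed the same order, with a difference of 0.38 (limma, unadjusted p = 0.0843, adjusted p = 0.257), and Tgfb1 the opposite one, with −0.34 (limma, unadjusted p = 0.0888, adjusted p = 0.264). Without VO RV replicate 3 these were 0.22 and −0.23. For all 3 genes the sham LV was the group farthest from the others, and the VO LV mean lay between the sham LV mean and the sham RV mean. Tgfbr3 did not pass without sham LV replicate 1, sham LV replicate 2, sham RV replicate 1, VO LV replicate 1, VO LV replicate 3 or VO RV replicate 3, where the difference lay between 0.36 and 0.56 over all libraries left out in turn. Nor did it pass with same-numbered LV and RV libraries of 1 treatment taken as blocks. Without VO RV replicate 2, Tgfbr3 passed and so did Smad3. Without VO RV replicate 2 and sham RV replicate 1 together, Tgfbr3 did not pass (0.44) and Smad3 did (0.42, limma, unadjusted p = 0.0444), and Tgfbr1 took the place of Tgfbr3 once the length trend was removed.

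Library by library, Tgfb1 and Tgfbr3 ran in opposite directions. Over the 12 libraries, Pearson's r of their log2 values was −0.94 (Spearman's rho −0.86), and it was −0.85 without sham RV replicate 1 and sham LV replicate 2, the libraries farthest from the median of Tgfb1. It was −0.91 over the 6 LV libraries, −0.93 over the 6 RV libraries and −0.87 once group means were removed. Smad3 followed Tgfbr3 (r = 0.88) and ran against Tgfb1 (r = −0.85). Both genes of a pair are read from the same libraries, which differ in their trend on gene length, so the values describe the libraries and carry no test. The endothelial marker sum followed Tgfb1 (r = 0.92) and ran against Tgfbr3 (r = −0.87) and Smad3 (r = −0.84). The slope of each library on gene length did the reverse (r = −0.84, 0.87 and 0.85), Tgfb1 being listed with 2140 bases, Smad3 with 5037 and Tgfbr3 with 6045. Tgfbr1, listed with 5866 bases, followed Tgfb1 (r = 0.76) and ran against the slope (r = −0.51). The part of gene length in these correlations was not tested.

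**Figure D3:**
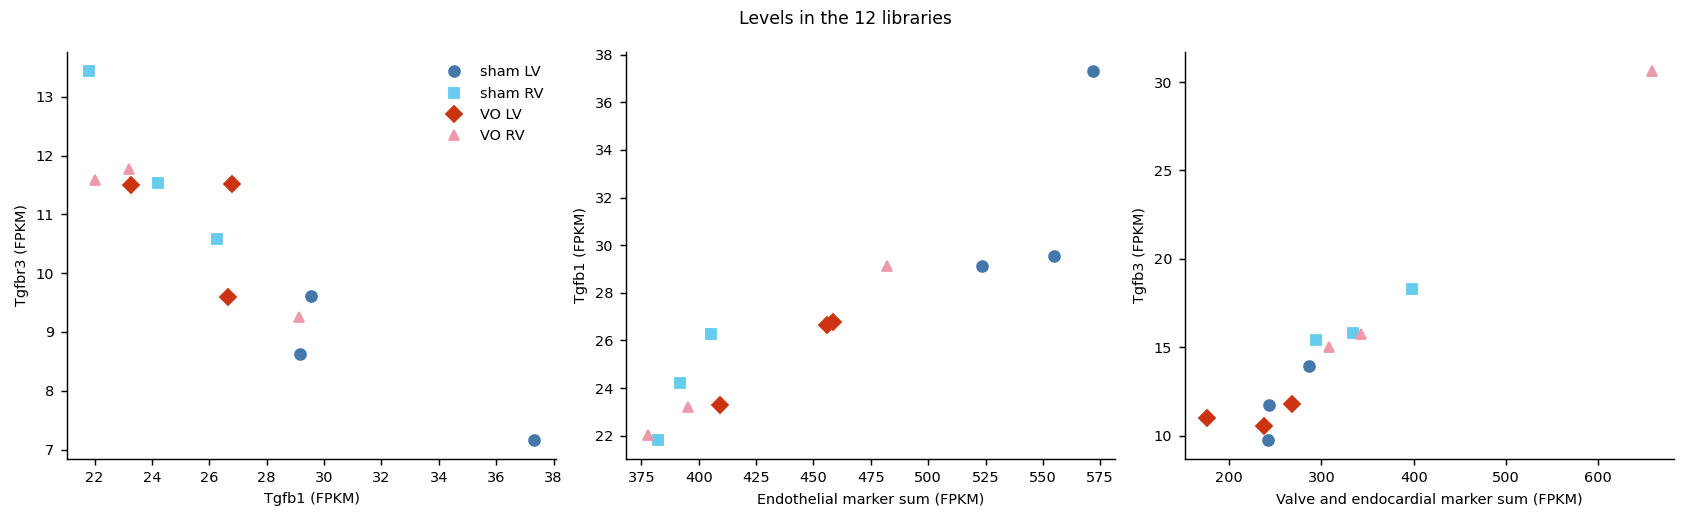
FPKM in the 12 libraries, with the group given by colour and shape: Tgfbr3 against Tgfb1 (left), Tgfb1 against the summed endothelial markers (middle) and Tgfb3 against the summed valve and endocardial markers (right). Tgfbr3 lay at 13.4 FPKM in the library with 21.8 FPKM of Tgfb1 and at 7.16 FPKM in the one with 37.3 FPKM, and VO RV replicate 2 stood apart in the right panel at 30.6 FPKM.

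The inhibitory SMADs moved together. Smad6 and Smad7 had r = 0.88 over the 12 libraries, 0.77 over the 6 LV libraries, 0.91 over the 6 RV libraries, 0.86 once group means were removed and 0.54 without VO RV replicate 2 and sham RV replicate 1. Tgfb3 followed Smad6 with r = 0.76 and Smad7 with r = 0.73 over all libraries, and with −0.05 and 0.06 without that pair. Smad6 ran against the ventricular cardiomyocyte marker sum (r = −0.95, and −0.63 without the pair). Tgfb3, in contrast, kept to the valve and endocardial sum, with r = 0.94 over all libraries and 0.81 without the pair. Without the pair it also followed the epicardial sum (r = 0.74) and ran against the atrial sum (r = −0.89). Tgfb3 and the valve and endocardial sum were each higher in every RV library than in every LV library. Their r therefore holds that split, and none was taken within a ventricle.

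**Figure D4:**
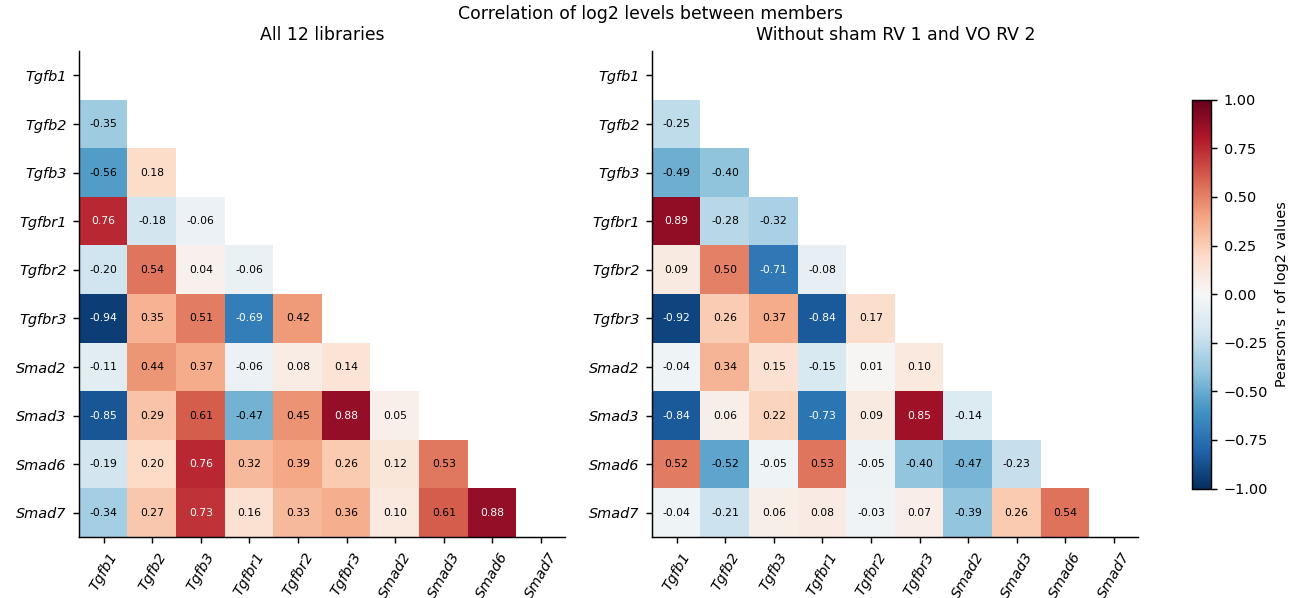
Pearson's r between the log2 levels of each pair of the 10 genes over all 12 libraries (left) and over the 10 libraries without sham RV replicate 1 and VO RV replicate 2 (right). Tgfb1 against Tgfbr3 was −0.94 and −0.92, while Tgfb3 with Smad6 went from 0.76 to −0.05.

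The genes of like pattern were ranked among tested genes with a mean of at least 1 FPKM, leaving out predicted, uncharacterized and undescribed loci. Those most like Tgfb1 were Arap3 (r = 0.98), Hspa12b (r = 0.97) and Npr1, the receptor for natriuretic peptides (r = 0.97). Those most like Tgfb3 were Cdh11, a cadherin of mesenchymal cells that is also in the valve marker list (r = 0.97), Id2 (r = 0.96) and Cp, or ceruloplasmin (r = 0.96). For Tgfb2 they were a septin gene (r = 0.86), Dync1i2 (r = 0.86) and Cenpf (r = 0.86). Tgfbr1 was most like F8, coagulation factor VIII (r = 0.92), Ahnak (r = 0.91) and Tspan7 (r = 0.91), Tgfbr2 most like Dpp3 (r = 0.91), Actr2 (r = 0.91) and Dync1h1 (r = 0.91), and Tgfbr3 most like Itm2c (r = 0.97), Tollip (r = 0.97) and Glg1 (r = 0.95). Smad2 was most like Dact2 (r = 0.88), Rps6ka2 (r = 0.86) and Mybl1 (r = 0.85), and Smad3 most like Tiparp (r = 0.94), Hdgfrp3 (r = 0.94) and Tgoln2 (r = 0.94). Smad6 was most like Fzd7 (r = 0.95), Prg4 (r = 0.95) and Apc2 (r = 0.92). The gene most like Smad7 was Smad6 itself, ahead of Fzd7 (r = 0.88) and Mbtps1 (r = 0.86). Each r is over the 12 libraries and describes likeness of pattern only.

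The rest of the pathway was read from 5 lists with 103 tested genes. Between the sham groups 6 of these (5.83%) were DEGs, against 3.86% of all tested genes. Between the sham groups, of 21 tested genes for storage and activation of latent TGF-beta 1 was a DEG, and it was lower in the LV. This was Itgb5, an integrin subunit that pairs with Itgav and binds latent TGF-beta. It stood at 9.60, 8.37 and 11.1 FPKM in the sham LV and at 24.3, 24.5 and 20.6 FPKM in the sham RV, far apart, with a log2 fold change of −1.22 and an SE of 0.23 (limma, adjusted p = 0.0325). Furin, the protease that cleaves the TGF-beta propeptide, stood at 31.8 ± 3.6 and 42.3 ± 4.2 FPKM (SD, n = 3 each; limma, adjusted p = 0.0537). The median log2 fold change of the list was −0.26, against 0.01 over all tested genes, and −0.13 without the pair of libraries with atrial transcripts.

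Of 10 other type I, type II and accessory receptors, 1 was a DEG between the sham groups. Bmpr1a, a type I receptor for BMPs, stood at 11.96, 10.2 and 13.9 FPKM in the sham LV and at 30.6, 24.2 and 17.4 FPKM in the sham RV, a log2 fold change of −0.95 with an SE of 0.23 (limma, adjusted p = 0.0493). Cd109, a co-receptor that restrains TGF-beta signalling, was the runner-up, at 7.27 and 4.89 FPKM on average (limma, adjusted p = 0.0620). Of 24 other SMADs and SMAD regulators, 1 was a DEG. Wwp1, a ubiquitin ligase that acts with SMAD7, stood at 5.50 ± 0.31 and 8.11 ± 0.69 FPKM (SD, n = 3 each; limma, log2 fold change −0.52, adjusted p = 0.0498). Ppm1a, a phosphatase that removes the activating phosphates of SMAD2 and SMAD3, came next, at 29.5 and 41.3 FPKM on average (limma, adjusted p = 0.0564).

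Of 20 tested BMP, GDF and activin ligands and antagonists, 3 were DEGs between the sham groups, 2 lower and 1 higher in the LV. Bmp7, a BMP ligand, stood at 2.92, 2.13 and 4.38 FPKM in the sham LV and at 8.58, 6.33 and 7.14 FPKM in the sham RV (limma, log2 fold change −1.14, SE 0.26, adjusted p = 0.0409). Fstl3, which binds and blocks activin, was also lower in the sham LV (4.14 and 5.80 FPKM on average; limma, log2 fold change −0.44, adjusted p = 0.0387). The higher one was Gdf1 (10.7 and 7.71 FPKM on average; limma, log2 fold change 0.44, adjusted p = 0.0462). Gdf1 and Cers1 have the same span in RefSeq, so the level of Gdf1 may include reads of Cers1. How the deposited values split reads between them was not tested. Of 28 tested TGF-beta target genes none was a DEG, and 2 passed the unadjusted p with the fold change in each direction, where 17.8% of all tested genes did in both. Their leading gene was Id3, a BMP and TGF-beta target, at 138 FPKM in the sham LV and 98.2 FPKM in the sham RV on average (limma, adjusted p = 0.105). None of the DEGs of these lists held without sham LV replicate 1, sham LV replicate 2, sham RV replicate 1, sham RV replicate 2 or VO LV replicate 2 taken out singly, without both libraries with atrial transcripts, with all genes above 0, or with either replicate block, although all kept their direction under every alternative run, where the adjusted p reached up to 0.174. The separate fit of the sham libraries kept Itgb5 only, and Bmpr1a and Wwp1 were also lost with the length trend removed, Wwp1 with quantile normalization and Fstl3 with voom on recovered reads. Of the 12 fits that each left out 1 library, Itgb5 remained a DEG in 7, Bmp7 in 5, Bmpr1a and Fstl3 in 4, Wwp1 in 3 and Gdf1 in 2.

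Under VO none of the 103 tested genes of the 5 lists was a DEG in either ventricle (limma), while 16 passed the unadjusted p with the fold change in the VO LV and 5 did in the VO RV. These are 15.53% and 4.85% of the lists, close to the 15.7% and 4.91% of all tested genes. The SMAD regulators had 5 of 24 genes past the unadjusted rule in the LV, all higher, and 20 of 24 above 0, where 47.2% of all tested genes were. With the length trend removed, 2 of the 24 passed, again higher, and 16 were above 0. In that fit 11 of the 103 genes of the lists (10.68%) passed, as did 2032 of all 13910 tested genes. In the LV, Itgb5 was at 18.6 ± 4.0 FPKM after VO, against 9.69 ± 1.4 FPKM in the sham LV (SD, n = 3 each; limma, log2 fold change 0.90, adjusted p = 0.0703). Inha, the inhibin alpha subunit, stood at 45.2, 44.6 and 48.6 FPKM in the VO LV and at 28.4, 22.5 and 31.9 FPKM in the sham LV (limma, log2 fold change 0.75, adjusted p = 0.0514). Its VO LV libraries lay above all others except VO RV replicate 1. Bmp7 had a log2 fold change of 0.98 in the LV (limma, adjusted p = 0.0730). Ctgf, the connective tissue growth factor and a classical TGF-beta target, stood at 35.6, 14.9 and 16.8 FPKM in the sham LV and at 45.1, 35.1 and 51.4 FPKM in the VO LV, which overlapped (limma, log2 fold change 1.05, adjusted p = 0.0902). In the RV it stood at 52.7, 30.7 and 33.5 FPKM in sham and at 87.9, 58.1 and 72.6 FPKM in VO, without overlap (limma, log2 fold change 0.92, adjusted p = 0.542). Cyr61, a matrix protein related to Ctgf, stood at 17.0, 13.1 and 17.0 FPKM in the sham RV and at 20.9, 28.3 and 25.3 FPKM in the VO RV (limma, log2 fold change 0.65, adjusted p = 0.482). Of the target list, 4 of 28 genes passed the unadjusted p with the fold change in the RV, all higher, against 4.91% of all genes in both directions. Without the libraries with atrial transcripts 2 of 28 did, against 4.7% of all tested genes.

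Between the VO LV and VO RV, 21 of the 103 tested genes of the lists (20.39%) passed the unadjusted p with the fold change, 19 of them lower in the LV, against 7.4% of all tested genes. Without the libraries with atrial transcripts 15 of 101 (14.85%) passed, 9 of them lower, against 8.5%. None was a DEG. In this comparison 5 of the 28 target genes had a log2 fold change above 0, and the median was −0.31, against 0.01 over all tested genes. Without the libraries with atrial transcripts, 7 of 28 were above 0 and the median was −0.09. Timp1, an inhibitor of matrix proteases, had the smallest p of the list, at 17.0, 14.4 and 19.6 FPKM in the VO LV and at 20.1, 35.1 and 31.2 FPKM in the VO RV (limma, log2 fold change −0.72, adjusted p = 0.252). Of the storage list, Dcn, or decorin, a matrix proteoglycan that binds TGF-beta, stood at 239 ± 54 and 349 ± 51 FPKM (SD, n = 3 each; limma, log2 fold change −0.56, adjusted p = 0.257). Of the SMAD regulators, Pmepa1, which holds back SMAD2 and SMAD3, stood at 21.9 and 31.2 FPKM on average (limma, log2 fold change −0.52, adjusted p = 0.281). Decorin is itself a fibroblast marker, and the fibroblast marker sum was 2119 to 2549 FPKM in the VO LV and 2486 to 4697 FPKM in the VO RV.

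In the difference between the responses, 3 of the 103 genes passed the adjusted p, Itgb5, Furin and Fstl3, each with a change in the LV above that in the RV. This is 2.91% of the lists, below the 4.19% of all tested genes. Furin stood at 40.7, 41.3 and 44.3 FPKM in the VO LV, above its sham LV range of 28.0 to 35.2 FPKM, and at 38.5, 36.9 and 33.1 FPKM in the VO RV, where the sham RV range was 38.5 to 46.9 FPKM (limma, difference 0.62, adjusted p = 0.0440). Itgb5 had a difference of 1.43 (limma, adjusted p = 0.0389). None of the 3 passed without VO RV replicate 2 and sham RV replicate 1, where the adjusted p of limma was 0.0674 for Itgb5, 0.0974 for Furin and 0.108 for Fstl3. Smad4, the shared partner of the receptor SMADs, had means of 21.8 and 25.5 FPKM in the sham LV and VO LV and of 25.4 and 21.9 FPKM in the sham RV and VO RV (limma, difference 0.43, adjusted p = 0.0714).

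**Figure D5:**
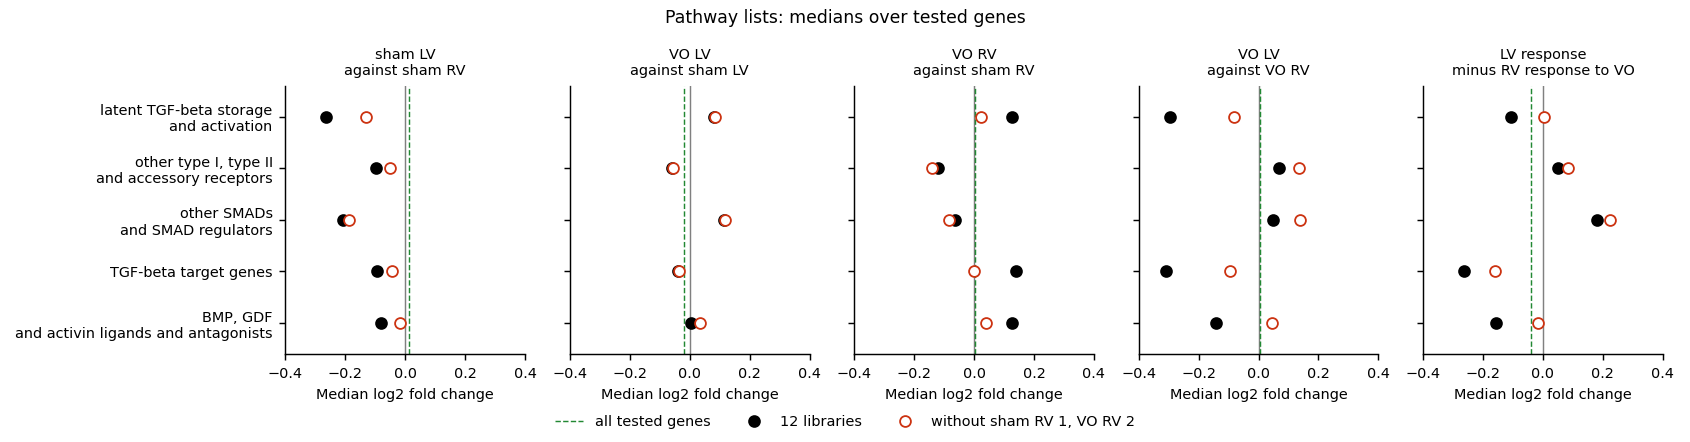
Median log2 fold change (x axis) of the tested genes of each pathway list (rows) in the 5 comparisons (panels), over the 12 libraries (filled) and without sham RV replicate 1 and VO RV replicate 2 (open), with the median of all tested genes as a dashed line. The target genes lay at −0.31 between the VO groups over all libraries and at −0.09 without the pair.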

How the data were processed

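RNA was sequenced from 12 libraries, 3 from either ventricle of either sham or VO rats. The authors deposited 1 table of FPKM per gene and library, and 0 of its value columns were left without a sample. Per the submitters' processing notes, HISAT2 2.0.5, StringTie 1.3.3b, featureCounts 1.5.0-p3, DESeq2 1.20.0 and GATK 3.7 were used. The genome build and the strand setting are not given in the sources used here. Gene coordinates are therefore not printed from the table, and promoters come from RefSeq (GRCr8). FPKM times gene length gave whole reads within 0.02 for 100% of the values below 200 reads, and depth was 14121713 to 16871371 reads on genes per library.

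FPKM were divided by median-ratio size factors and log2(value + 0.5) of the 13910 genes averaging at least 0.5 FPKM was fitted with limma 3.58.1 (R 4.3.3, empirical Bayes with trend, 1 model of 4 groups, 5 comparisons). A fold change is on this log2(value + 0.5) scale and understates the change of low genes. P values were adjusted over all tested genes by Benjamini-Hochberg, with DEGs taken at 0.05 and a change of more than 1.3-fold. Exact two-sided permutation tests (SciPy 1.17.1) used the deposited FPKM. The fit was tested on simulated data. The 10 genes and all lists were chosen with earlier results of these data known. Named genes were the 10 genes, every DEG of a pathway list, the 2 genes of each list with the smallest p in each comparison (given in part), and the 3 genes with a mean of at least 1 FPKM most correlated with each of the 10. Predicted, uncharacterized and undescribed loci were left out when these 3 were picked. Marker genes were named where a result stands beside them. Furthermore, 26 alternatives were run, of which those without the pair of libraries with atrial transcripts and with the length trend removed were chosen after seeing the data. Comparisons share groups, so their values are not independent.

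Of 18 same-numbered pairs of libraries, 2 had a correlation of deviations over 0.1 (range −0.28 to 0.12). Most of these pairs set a sham against a VO library, which cannot come from 1 rat. Between the LV and RV of 1 treatment the values were 0.04, 0.04 and 0.12 in sham and 0.05, −0.05 and −0.22 in VO. With 3 libraries a group, they cannot settle whether LV and RV libraries of the same number were paired.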

Additional observations from a re-analysis of the deposited data

Results flagged for a closer look

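Of the 103 tested pathway genes, 3 (2.91%, against 4.19% of all tested genes) had a response to VO in the LV that differed from that in the RV by the test of the difference itself (limma, adjusted over 13910 genes). Itgb5 differed by 1.43 on the log2 scale, with a mean going from 9.69 to 18.6 FPKM in the LV and from 23.2 to 16.4 FPKM in the RV (adjusted p = 0.0389). Furin differed by 0.62, from 31.8 to 42.1 FPKM in the LV and from 42.3 to 36.1 FPKM in the RV (adjusted p = 0.0440). Fstl3 differed by 0.56, from 4.14 to 5.20 FPKM in the LV and from 5.80 to 4.73 FPKM in the RV (adjusted p = 0.0478). All 3 lost the threshold without sham LV replicates 1 or 2, sham RV replicates 1 or 2, any 1 of the 3 VO LV libraries, or VO RV replicate 3. Fstl3 also lost it without sham LV replicate 3 or VO RV replicate 1, and Furin without sham RV replicate 3. All 3 also lost it under both replicate blocks, with all genes above 0 and without both libraries with atrial transcripts, Furin and Fstl3 with the length trend removed, and Fstl3 with quantile normalization or voom on recovered reads. The direction was the same in all 25 alternatives, with adjusted p values up to 0.154, 0.149 and 0.173. The summed endothelial markers moved in the LV as well, from 524 to 572 FPKM in sham to 409 to 459 FPKM in VO. So did the fibroblast markers, from 2571 to 2833 FPKM in sham to 2119 to 2549 FPKM in VO, and 3 of 6 erythroid markers were lower without overlap. Their part in these differences was not tested.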

How the results depend on the processing

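None of the 10 genes was a DEG in any of the 5 comparisons under any alternative run, 26 between the ventricles of 1 treatment and 25 for each other comparison, the smallest adjusted p being 0.0505 (limma with array weights, Tgfbr3 between the sham groups). Of the 50 estimates, 26 kept their sign throughout and 24 changed it under some alternative. For VO RV against sham RV, Tgfb3 (0.23) turned to −0.10 without VO RV replicate 2 and −0.023 without both libraries with atrial transcripts (leave-one-out range −0.10 to 0.41), Smad6 (0.06) to −0.30, −0.16 and, without sham RV replicate 2, −0.04 (range −0.30 to 0.32), and Smad7 (0.12) to −0.091 and −0.036 (range −0.09 to 0.25). The replicate block left 0 of the 10 genes as DEGs in each comparison and took the DEGs among all genes from 537, 13, 0, 1 and 583 to 3, 3, 0, 2 and 1, in the order of the comparisons above. With all genes above 0 these were 8, 5, 1, 1 and 21 of 21603. They were 1321, 704, 0, 1 and 1047 with array weights and 9, 2, 2, 2 and 2 without both libraries with atrial transcripts. Leaving out 1 library at a time gave 0 to 872, 0 to 555, 0 to 1, 1 to 48 and 0 to 1004. For VO LV against sham LV alone, other settings gave 5 (length trend removed), 56 (pseudocount 0.1), 119 (separate fit), 183 (mean of at least 1 FPKM) and 339 (voom on recovered reads), and for the sham groups the separate fit gave 314. The cause was not tested. With 3 libraries a group, a difference inside its 95% interval around 0 was not detectable.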
